A study of Mus musculus with 8 samples.

Results

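Ets1 and the Runx factors were followed here as a gene set of 5 symbols: Ets1, Runx1, Runx2, Runx3 and Cbfb. Every probe set whose platform annotation gives one of these symbols alone was taken, whatever its values. This gave 4 of the 17097 genes named by a single symbol, through 13 of the 45141 probe sets in the table, with 4 for Ets1, 6 for Runx1, 2 for Runx3 and 1 for Cbfb. No probe set carried Runx2 alone, so Runx2 was not analysed here. The arrays hold RNA of sorted mouse bone marrow cells, and the series title asks where Nfil3, a bZIP transcription factor that mice need to make natural killer (NK) cells, is required along NK cell development. The 2 populations were ALP, the early progenitors of all lymphoid lineages, and preproNK, later cells on the way to NK cells. Each came from wild type (WT) mice and from Nfil3 knockout (KO) mice, with 2 arrays in each of the 4 groups. All 4 groups were taken from lineage-depleted marrow of mice carrying an Id2-GFP reporter, in which green fluorescence reads out the Id2 gene, and the cells were lysed after sorting with no culture. The sources used here do not give the age of the mice, how many gave each sample or how the Nfil3 allele was made. The sample titles give replicate 1 and replicate 2 different months, so a replicate number is also a batch. They do not say which step was done in each month.

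Ets1 is a member of the ETS family, transcription factors that bind DNA through a shared ETS domain at sites with a GGAA core. In mice, loss of Ets1 leaves few NK cells. The Runx proteins bind DNA through the Runt domain and do so well only when paired with Cbfb, which does not touch DNA itself. In mice, Runx1 is needed for the first blood stem cells and later for lymphoid progenitors, Runx3 acts in cytotoxic T cells and NK cells, and Runx2 is best known for its work in bone. Ets1 and Runx proteins can bind neighbouring sites together on lymphoid genes.

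Values are log2 expression values, so a difference of 1 is a doubling of the signal. A probe set below the median of its array is near background there, since no detection calls were given. The array medians lay between 3.93 and 4.27. The check of the targeted gene came first. Nfil3 read 6.89 and 5.50 in WT ALP, 3.41 and 4.15 in KO ALP, 4.75 and 4.74 in WT preproNK, and 3.84 and 3.57 in KO preproNK, in the order of replicates 1 and 2. Nfil3 was lower on both KO arrays than on both WT arrays in each population, but it is not known whether its probes match the part that was deleted. The labelled populations were also set against their markers. Of 6 tested ALP markers 4 were lower in preproNK (Dntt, Cd34, Flt3 and Rag2), and of 8 markers of NK precursors 6 were higher and 1, Cd244a, was lower. Over all tested probe sets 1.47% were called higher and 1.35% lower in this comparison. Cd34 and Rag2 were above the array median only in ALP, and Klrk1 and Tbx21 only in preproNK. These markers were therefore tested only through the arrays where they were high. With 1 array left out at a time 3 to 4 of the ALP markers were called, and of the NK precursor markers 7 without WT preproNK replicate 1 or replicate 2 and 1 to 5 without any other array. The WT preproNK replicate 2 array stood apart before any comparison was made. The SD over its probe sets was 1.39, where the other arrays had 1.55 to 1.88. On it 703 of the 26240 tested probe sets had a log2 value of at least 8, and on the others 1301 to 2643 did. Values without it are given beside the main results.

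Ets1 showed the largest differences between the populations among the 4 genes, with higher mean values in preproNK than in ALP in both genotypes. The probe set with the highest mean, 1452163_PM_at, read 6.92 and 5.41 in WT ALP and 7.15 and 6.36 in KO ALP. In preproNK it read 9.37 and 6.46 in WT and 9.19 and 9.24 in KO. The other 3 preproNK arrays stood above every ALP array, while WT preproNK replicate 2 lay among the ALP arrays, so the populations overlapped through that array alone. The second probe set, 1422027_PM_a_at, also had WT preproNK replicate 2 among the ALP arrays and the other preproNK arrays above them. It read 6.02 and 5.44 in WT ALP, 5.89 and 5.83 in KO ALP, 8.46 and 5.78 in WT preproNK, and 8.33 and 7.78 in KO preproNK.

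The other 2 probe sets of Ets1 gave lower signals. Probe set 1422028_PM_a_at read 3.61 and 4.25 in WT ALP, 3.72 and 3.84 in KO ALP, 4.96 and 6.74 in WT preproNK, and 5.34 and 5.87 in KO preproNK. It was the single member probe set whose 4 preproNK values all lay above its 4 ALP values, a pattern that 5.21% of the tested probe sets showed. None of the 13 had all 4 preproNK values below the ALP values, as 6.54% of the tested probe sets did. On 3 of the 4 ALP arrays 1422028_PM_a_at was below the array median, so its ALP level is near background. On this probe set WT preproNK replicate 2 was the highest array of all, whereas on the other 3 probe sets of Ets1 it was the lowest of the preproNK arrays. The fourth, 1426725_PM_s_at, was above the array median on 1 array (KO preproNK replicate 1, 4.64) and was not tested; its other values ran from 2.06 to 4.02.

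**Figure D1:**
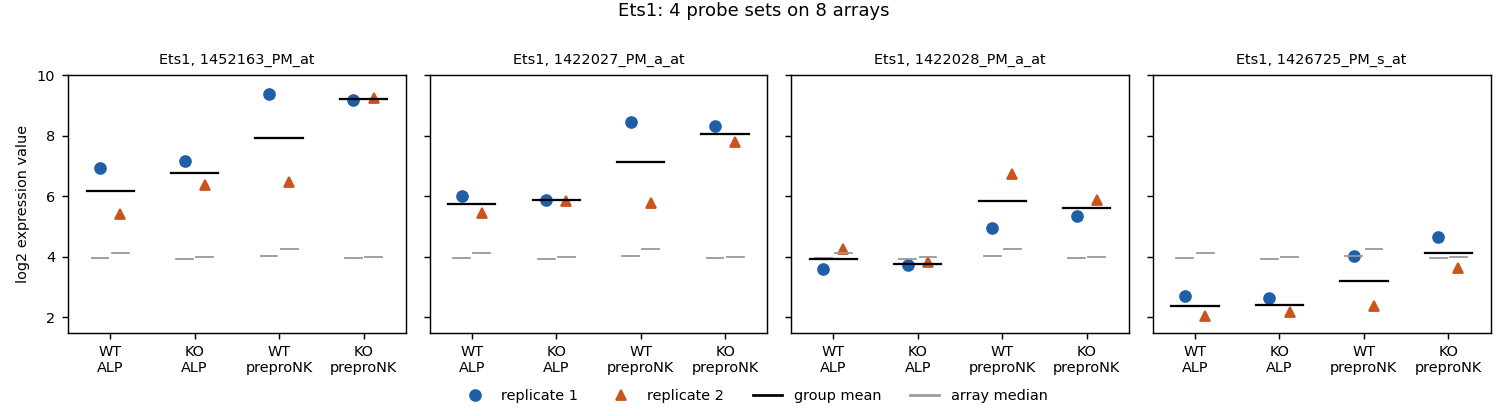
Log2 expression values of the 4 Ets1 probe sets (panels) in the 4 groups on the horizontal axis; circles are replicate 1, triangles replicate 2, black lines group means and grey lines the median of each array. The WT preproNK triangle lies among the ALP arrays for 1452163_PM_at (6.46) and 1422027_PM_a_at (5.78) but is the highest point for 1422028_PM_a_at (6.74).

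Averaged over both genotypes, Ets1 was 2.10 ± 0.66 (SE) higher in preproNK than in ALP on 1452163_PM_at, with an adjusted p of 0.173 in limma. The same difference was 1.79 ± 0.56 on 1422027_PM_a_at (adjusted p 0.172) and 1.87 ± 0.42 on 1422028_PM_a_at (adjusted p 0.0689). None of the 12 member probe sets that were tested passed an adjusted p of 0.05 in this comparison, in which 2.82% of all tested probe sets did (1.47% higher and 1.35% lower in preproNK). The tests rest on 2 samples a group, and the labels do not say which mice gave them. The sex-linked gene Xist read 3.56 and 7.94 in WT ALP, 3.10 and 9.30 in KO ALP, and 3.33 and 8.78 in KO preproNK. In these groups the 2 samples were therefore not from the same mice. WT preproNK showed no such split (3.47 and 4.20). The p-values cover only the spread of the 2 samples, part of which may be technical. The median difference over all tested probe sets was 0.02, against which the Ets1 differences can be read.

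The call on Ets1 depended on how the replicates were treated. With the replicate number as a block in limma, 1452163_PM_at (adjusted p 0.0392) and 1422028_PM_a_at (adjusted p 0.0165) passed, and 1422027_PM_a_at reached 0.0551. In that fit 1627 of the 26240 tested probe sets passed, where 740 did without the block. The block assumes a shift shared by all groups. Replicate shifts in KO preproNK correlated at only 0.131 to 0.187 with those of the other groups. Without WT preproNK replicate 2 the differences on 1452163_PM_at, 1422027_PM_a_at and 1422028_PM_a_at were 2.83, 2.46 and 1.43. Without WT preproNK replicate 1 they were 1.38, 1.12 and 2.32. With the block and without WT preproNK replicate 2, they were 2.64, 2.37 and 1.54. Leaving out either array leaves 1 in WT preproNK, so only the Ets1 differences are given here for these settings.

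The Ets1 differences were also taken within each genotype. In KO cells, preproNK exceeded ALP by 2.46 ± 0.93 (SE) on 1452163_PM_at, 2.20 ± 0.79 on 1422027_PM_a_at and 1.83 ± 0.59 on 1422028_PM_a_at. The paired KO differences of 1452163_PM_at were 2.04 at replicate 1 and 2.88 at replicate 2. The adjusted p-values were 0.386, 0.348 and 0.281 in the fit to all 8 arrays, where 1.44% of the tested probe sets passed (0.998% as higher in preproNK). In a limma fit to the 2 KO groups alone they were 0.00102, 0.00157 and 0.00522, in a comparison in which 2200 probe sets then passed. In WT cells the differences were 1.75 ± 0.93, 1.39 ± 0.79 and 1.92 ± 0.59, with adjusted p-values of 0.805, 0.831 and 0.459, and 0.061% of the tested probe sets passed. The paired WT differences of 1452163_PM_at were 2.45 at replicate 1 and 1.05 at replicate 2. The WT values depended on which WT preproNK array was kept. Without replicate 2 the WT differences on the same 3 probe sets were 3.20, 2.73 and 1.04. Without replicate 1 they were 0.29, 0.05 and 2.81. The interaction, the KO difference minus the WT difference, was 0.71 ± 1.31 on 1452163_PM_at (adjusted p 1), so no difference between the genotypes in the size of the Ets1 change was shown. No probe set passed the interaction test in limma (0%), and 1.49% had an unadjusted p under 0.05.

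Markers of T cells, which also express Ets1, were higher in preproNK too, in the comparison where 1.47% of all tested probe sets were called higher. All 6 tested T cell markers (Cd3e, Cd3g, Cd3d, Cd28, Bcl11b and Lat) were called higher in preproNK over both genotypes. With 1 array left out at a time, 1 to 6 of them were called: 6 without WT preproNK replicate 1 or replicate 2, 1 to 4 without any other array. Cd3e and Cd3g, chains of the T cell receptor complex, and the costimulatory receptor Cd28 were below the array median on every ALP array and above it on every preproNK array, so no fold is given for them. They were tested only through their preproNK arrays, so their calls were partly fixed by the choice of probe sets. The marker list was chosen with earlier results of these data known. Bcl11b, a factor of T cell commitment that was above the median on all 8 arrays, was 3.53 ± 0.43 (SE) higher. The mean log2 level over the 6 markers was 4.45 to 4.64 on the WT ALP arrays and 4.27 to 4.28 on the KO ALP arrays. It was 6.13 to 7.62 in WT preproNK and 8.92 to 9.12 in KO preproNK, where all 6 were above the array median on both arrays. In this comparison no list of markers for B lineage, myeloid, erythroid, megakaryocyte and mast cell, or osteoblast and stromal cells had a called member (with the replicate block 1 myeloid marker was called), while 3 of 5 tested plasmacytoid dendritic cell markers were lower in preproNK. The lack of a call is not a lack of signal. Of 8 myeloid markers 6 were above the array median on both arrays of every group, and the erythroid marker Hba-a1 read 8.27 to 11.43 over all arrays. The part of other cells in the Ets1 result was not tested. In bulk RNA, fewer cells of a type and less RNA per cell cannot be told apart.

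In the fit to all 8 arrays the knockout had no called effect on Ets1. In ALP, KO exceeded WT by 0.59 ± 0.93 (SE) on 1452163_PM_at (adjusted p 1), with paired differences of 0.23 and 0.95. In preproNK the difference was 1.30 ± 0.93 (adjusted p 0.629), made up of a paired difference of -0.18 at replicate 1 and 2.78 at replicate 2. The replicate 2 pair contains the WT array that stands apart. Without that array the KO difference was -0.15, and without WT preproNK replicate 1 it was 2.75. Probe set 1422028_PM_a_at, on which that array was high, read lower in KO at replicate 2 (5.87 against 6.74).

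The Runx genes share a feature in their sequence that the arrays do not measure. RefSeq promoter windows of 300 bases (250 before and 50 after a gene's start, GRCm38.p6) were at hand for 4 of the 5 genes, with 2 starts, distal and proximal, for Runx1 and Runx3. The longest run common to the windows of Runx1 (distal), Runx2 and Runx3 (distal) was 18 bases long and holds 2 copies of the Runx core. The stretches are shown because they tie the 3 Runx genes together and place their own family's core at their starts. They are read 5′ to 3′ on the gene's strand, with both copies of the Runx core in capitals. Read on the other strand, the core is TGTGGT.
Runx1 (distal), chr16:92826025-92826054, minus strand: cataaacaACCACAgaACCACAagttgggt
Runx2, chr17:44814583-44814612, minus strand: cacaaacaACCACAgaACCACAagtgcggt
Runx3 (distal), chr4:135120503-135120532, plus strand: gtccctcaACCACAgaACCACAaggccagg

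The shared run began 27 bases after the start in Runx1, 22 bases after it in Runx2, and 136 bases before it in Runx3. It was found by comparing these windows and then counted in all windows. Of 32851 RefSeq windows, 4 (0.0122%) held it on either strand: those of the 3 Runx genes and that of Gm16225, a noncoding RNA gene on the opposite strand whose window overlaps the Runx3 one. A single Runx core on either strand was in 16.8% of all windows. Of the 6 member windows, those of Runx1 (distal), Runx2 and Runx3 (distal) held the core, and those of Runx1 (proximal), Runx3 (proximal) and Cbfb did not. An ETS core, CCGGAA on either strand, was in 14.9% of all windows and once among the members, in the proximal window of Runx1. A site of the Nfil3 type, TTANGTAA, was in 2.32% of all windows and in 0 of the 6. A match of letters is no evidence that a factor binds there, and no binding was measured.

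Runx1, the Runx gene of blood stem cells and early lymphoid progenitors, showed no single direction between the populations, and its 6 probe sets did not move together. The probe set with the highest mean, 1452531_PM_at, read 7.06 and 6.15 in WT ALP, 7.19 and 6.40 in KO ALP, 6.33 and 6.53 in WT preproNK, and 6.99 and 7.15 in KO preproNK. The populations overlapped throughout, and within each ALP group replicate 1 was the higher array. Its mean difference, preproNK minus ALP, was 0.05 ± 0.31 (SE, adjusted p 0.981). It was -0.17 in WT and 0.28 in KO, neither larger than its SE of 0.44.

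The next Runx1 probe sets were as flat. Probe set 1427650_PM_a_at ran from 5.73 to 6.12 over all 8 arrays, the narrowest range of any member, with a difference between populations of 0.02 ± 0.23 (SE). Probe set 1452530_PM_a_at ran from 5.57 (WT ALP replicate 1) to 6.66 (WT ALP replicate 2), with a difference of -0.02 ± 0.34. On it the replicate 2 arrays were higher than the replicate 1 arrays in 3 of the 4 groups, the reverse of 1452531_PM_at, on which replicate 1 was higher in both ALP groups.

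The remaining 3 Runx1 probe sets were lower in preproNK than in ALP on average. Probe set 1422864_PM_at read 6.32 and 4.85 in WT ALP, 6.17 and 5.69 in KO ALP, 5.15 and 3.48 in WT preproNK, and 5.50 and 5.35 in KO preproNK. Its difference was -0.89 ± 0.47 (SE), with an adjusted p of 0.477, and at each replicate number and in each genotype the preproNK array was below the ALP array. It was -0.47 without WT preproNK replicate 2, -1.31 without WT preproNK replicate 1 and -0.52 without WT ALP replicate 1. Probe set 1440878_PM_at differed by -0.47 ± 0.44 and 1422865_PM_at by -0.17 ± 0.64. WT ALP replicate 2 and WT preproNK replicate 2 were the 2 lowest arrays on all 3 of these probe sets. No Runx1 probe set passed the test in any of the 6 comparisons.

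**Figure D2:**
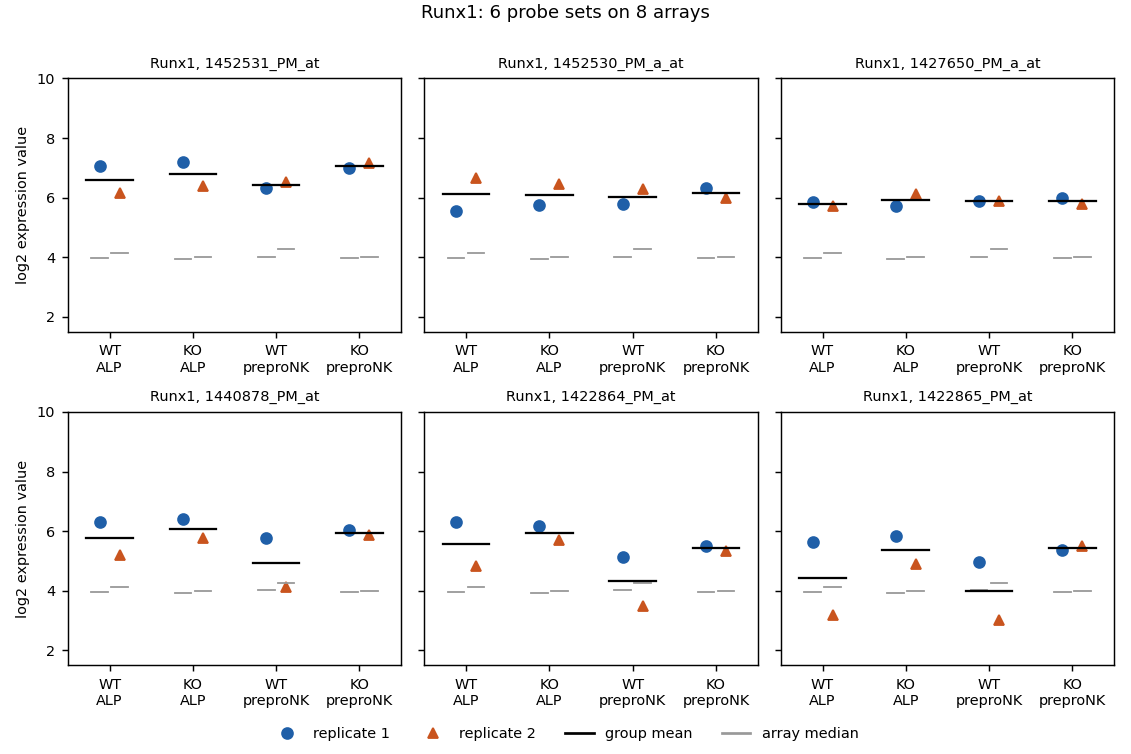
Log2 expression values of the 6 Runx1 probe sets (panels) by group; circles are replicate 1, triangles replicate 2, black lines group means and grey lines array medians. Probe set 1427650_PM_a_at is level between 5.73 and 6.12, while 1422864_PM_at is lower in both preproNK groups and drops to 3.48 on WT preproNK replicate 2.

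In KO preproNK, Runx1 on 1452531_PM_at was 0.64 ± 0.44 (SE) higher than in WT preproNK, with an adjusted p of 0.629. Its paired differences were 0.66 at replicate 1 and 0.62 at replicate 2, of similar size in both pairs. In ALP the KO difference was 0.19 ± 0.44 (adjusted p 1). Probe set 1427650_PM_a_at, the level one, gave paired differences of 0.10 and -0.09 in preproNK. The 3 probe sets on which WT preproNK replicate 2 was lowest gave larger fitted differences, all with an adjusted p of 0.629. These were 1.00 ± 0.62 (SE) on 1440878_PM_at, 1.11 ± 0.67 on 1422864_PM_at and 1.44 ± 0.90 on 1422865_PM_at. Their paired differences were 0.26, 0.35 and 0.41 at replicate 1 and 1.74, 1.87 and 2.47 at replicate 2.

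Runx3, the Runx gene of cytotoxic lymphocytes, was above the array median on every array with its brighter probe set, 1421467_PM_at. It read 7.71 and 7.49 in WT ALP, 7.87 and 8.09 in KO ALP, 8.22 and 7.41 in WT preproNK, and 8.58 and 8.62 in KO preproNK. The KO preproNK arrays were the highest 2 and WT preproNK replicate 2 was the lowest. The mean difference, preproNK minus ALP, was 0.42 ± 0.27 (SE, adjusted p 0.599), with 0.21 in WT and 0.62 in KO. Without WT preproNK replicate 2 it was 0.62.

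Runx3 was higher on both KO arrays than on both WT arrays in each population on this probe set. The differences were 0.38 ± 0.38 (SE) in ALP and 0.79 ± 0.38 in preproNK, with adjusted p-values of 1 and 0.629. The paired differences in preproNK were 0.36 at replicate 1 and 1.22 at replicate 2, and without WT preproNK replicate 2 the difference was 0.38. The second Runx3 probe set, 1440275_PM_at, read 6.74 and 4.76 in WT ALP, 6.89 and 6.29 in KO ALP, 6.92 and 2.81 in WT preproNK, and 7.26 and 7.12 in KO preproNK. Its one value near background, 2.81, was on WT preproNK replicate 2, and its mean difference between populations of -0.14 ± 0.87 turned to 0.89 without that array.

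Cbfb, the partner that Runx proteins need for firm DNA binding, had 1 probe set, 1460716_PM_a_at. It read 6.60 and 6.27 in WT ALP, 7.30 and 7.01 in KO ALP, 6.24 and 4.74 in WT preproNK, and 6.60 and 6.72 in KO preproNK. In each pair of the same genotype and replicate the preproNK array was the lower one, though the groups overlapped. The mean difference was -0.72 ± 0.36 (SE), with an adjusted p of 0.439. It was -0.94 ± 0.51 in WT and -0.49 ± 0.51 in KO. The WT difference was -0.19 without WT preproNK replicate 2 and -1.69 without WT preproNK replicate 1. Without WT preproNK replicate 1 the mean difference was -1.09, and with replicate 2 left out in its place it was -0.34.

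Cbfb also read higher on both KO arrays than on both WT arrays in each population. In ALP the difference was 0.72 ± 0.51 (SE, adjusted p 1), with closely similar paired values of 0.70 and 0.74. In preproNK it was 1.17 ± 0.51 (adjusted p 0.629), with paired values of 0.36 and 1.98. Without WT preproNK replicate 2 the preproNK difference was 0.42, and without WT preproNK replicate 1 it was 1.92.

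**Figure D3:**
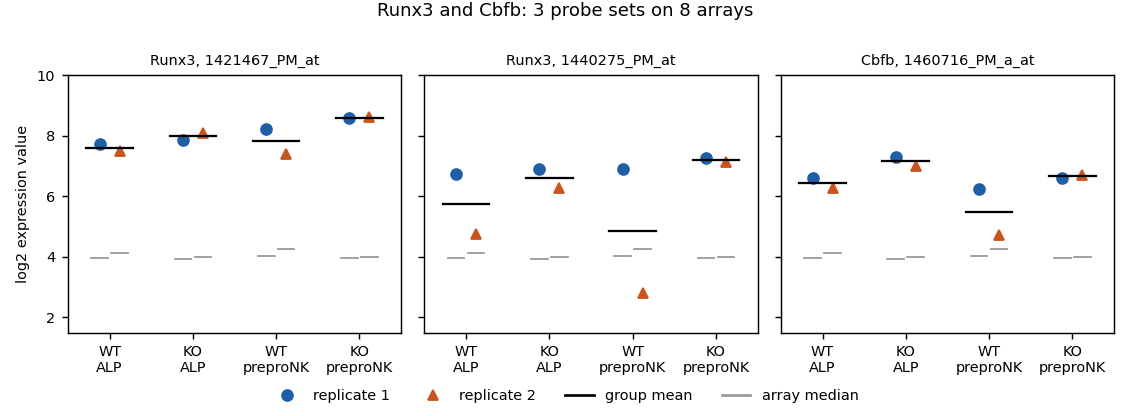
Log2 expression values of the 2 Runx3 probe sets and the Cbfb probe set (panels) by group; circles are replicate 1, triangles replicate 2, black lines group means and grey lines array medians. KO ALP lies above WT ALP for Cbfb (7.30 and 7.01 against 6.60 and 6.27), and WT preproNK replicate 2 is the lowest point in each panel.

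Between the genotypes, none of the 26240 tested probe sets passed the adjusted test in limma, in ALP or in preproNK. The unadjusted p was under 0.05 for 19 (0.0724%) in ALP and for 1380 (5.26%) in preproNK, of which 1126 (4.29% of those tested) were higher in KO. Both KO ALP arrays were above both WT ALP arrays for 2 of the 13 member probe sets, those of Cbfb and Runx3 described above, and this pattern was seen in 9.23% of the tested probe sets. None of the 13 had the reverse order in ALP, which 7.68% of the tested probe sets had. In preproNK, 7 of the 13 had both KO arrays above both WT arrays, against 22.6% of the tested probe sets, and 0 had both below, against 16.3%. Those 7 were 4 of Runx1, both of Runx3 and that of Cbfb. WT preproNK replicate 2 was the lowest of the 4 preproNK arrays on 6 of these 7 probe sets and on 9 of the 13, and it was so on 51% of all tested probe sets.

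**Figure D4:**
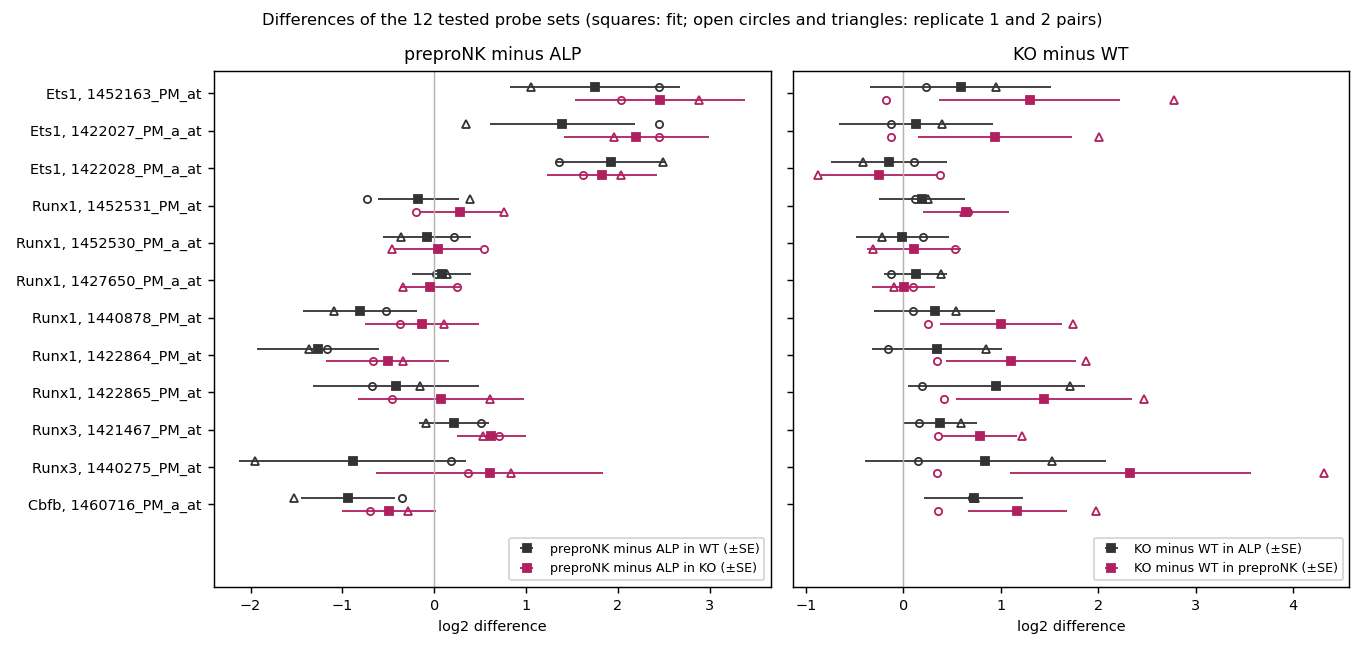
Log2 differences of the 12 tested member probe sets (vertical axis), for preproNK minus ALP in each genotype (left) and KO minus WT in each population (right); squares are fitted differences with bars of 1 SE, and open circles and triangles are the replicate 1 and replicate 2 pairs. The Ets1 squares lie between 1.39 and 2.46 on the left, while on the right the preproNK triangle of 1452163_PM_at lies at 2.78 and its circle at -0.18.

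The other ETS genes gave mixed directions. Of 13 tested members of the family, 0 were called higher and 1 was called lower in preproNK over both genotypes, with a median difference of 0.14 against 0.02 over all tested probe sets, of which 1.47% were called higher and 1.35% lower. These shares and this median are also the background for the lists that follow. The called one was Erg, an ETS factor of blood stem cells and megakaryocytes, at -2.05 ± 0.33 (SE, adjusted p 0.0254). Erg read 7.56 and 6.93 in WT ALP, 7.68 and 6.89 in KO ALP, 5.13 and 5.79 in WT preproNK, and 5.29 and 4.65 in KO preproNK. All its preproNK values lay below all its ALP values. Etv3, a repressor of the family, was not called (0.98 ± 0.31, adjusted p 0.188), but its preproNK values (6.39 to 7.33) all lay above its ALP values (5.57 to 6.23); it is named here after its values were seen. With the replicate block 3 of the 13 were called, without WT preproNK replicate 1 or replicate 2 3, and without any other array 0.

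The genes whose products work with Runx proteins gave a like count. Of 10 tested cofactors 0 were called higher and 1 lower, with a median of -0.18. It was Cbfa2t3, a corepressor of the family whose relative is fused to RUNX1 in human leukaemia, at -1.44 ± 0.27 (SE, adjusted p 0.0398). Cbfa2t3 ran from 7.50 to 8.10 on the ALP arrays and from 6.01 to 6.62 on the preproNK arrays. With the replicate block 2 of the 10 were called, and 2 and 1 without WT preproNK replicates 1 and 2. Without any other array 0 were called.

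Genes that Ets1 or Runx factors are known to regulate in lymphocytes were higher in preproNK where they were called. The list does not separate genes that these factors activate from genes that they repress. Of 13 tested, 4 rose and 0 fell over both genotypes, with a median difference of 1.31. Tbx21, which encodes the NK and T cell factor T-bet, rose by 4.19 ± 0.30 (SE, adjusted p 0.00244). Il2rb, a receptor chain for interleukins that NK cells depend on, rose by 3.53 ± 0.32, Id2, an inhibitor of E proteins, by 3.38 ± 0.49, and the T cell coreceptor Cd4 by 1.38 ± 0.24. Tbx21 was below the array median on every ALP array and Il2rb on 3 of the 4, so their differences are measured against values near background. Id2 is the gene of the sorting reporter, and the sources used here do not say whether the gates used it. In KO cells alone Gzmb, a cytotoxic granule protease, was called as well. With the replicate block 7 of the 13 were called. Over both genotypes 8 and 6 were called without WT preproNK replicates 1 and 2, and 1 to 3 without any other array. In KO alone 0 were called once a KO array was left out.

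The list of targets in progenitors and myeloid cells had no called member of 9 tested, with a median of -0.64. The 2 with the smallest p were Spi1, the ETS factor PU.1 of myeloid and early lymphoid cells, at -1.61 ± 0.37 (SE, adjusted p 0.0747), and Csf2, a growth factor gene, at 0.98 ± 0.24 (adjusted p 0.0858). With the replicate block 4 of the 9 were called, and 1 and 4 without WT preproNK replicates 1 and 2. Among 13 tested transcription factors of NK development, 5 rose (Ikzf3, Tbx21, Lef1, Id2 and Zbtb16) and 1, Zeb2, fell. Ikzf3, the lymphoid factor Aiolos, rose by 5.36 ± 0.75, and Zeb2 fell by 2.38 ± 0.45 on the log2 scale. The ALP values of Ikzf3 (3.98 to 4.65) lay just above the array medians, and Lef1 and Tbx21 were below them on every ALP array. The rises of Ikzf3, Lef1 and Tbx21 are thus measured against values near background. Of these 13, 7 were called without WT preproNK replicate 1 or replicate 2 and 1 to 3 without any other array. In the comparisons between genotypes 0 genes of any of these 5 lists were called. Of the lymphoid targets in preproNK, Tbx21 and Il2rb had the smallest p, at 2.78 (adjusted p 0.248) and 2.64 (adjusted p 0.334) higher in KO.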

How the data were processed

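RNA of 8 sorted cell samples was extracted with magnetic beads, amplified for 23 cycles and hybridised to 1-colour Affymetrix arrays, per the labels' protocols. Such amplification can itself add spread between arrays. The authors deposited 1 log2 value per probe set and array, for which the submitters' processing notes name RMA and Partek without versions or settings. There is no read depth, and precision is limited by the number of arrays.

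Groups came from the labels. In limma 3.58.1 under R 4.3.3, lmFit and eBayes were used with a mean for each group and 4 residual degrees of freedom, for probe sets above their array's median on at least 2 arrays (26240 of 45141). P-values are two-sided, with Benjamini-Hochberg adjustment over all of these in each of 6 comparisons, with calls at an adjusted p under 0.05. The fit was tested on simulated data. Tables were handled in Python 3.11.15 with pandas 2.3.3.

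Symbols came from the platform annotation, in which 28898 probe sets had 1 symbol, 551 had several and 15692 were unlisted. Of the first, 28689 matched RefSeq. Named were all member probe sets and, per list, up to 4 called genes or the 2 with the smallest p, a gene being represented by whichever probe set had the highest mean. The members and lists were chosen with earlier results of these data known. Promoter windows came from RefSeq (GRCm38.p6).

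The sample titles tie replicate numbers to months, so the numbers pair the samples. Across probe sets, which are not independent replicates, the amounts by which replicate 1 arrays differed from their group's mean correlated at 0.594 to 0.799 between pairs of groups without KO preproNK and at 0.131 to 0.187 in pairs with it. The sex-linked genes split by replicate number too. In every group Kdm5d was lower at replicate 2, and Xist was far higher there except in WT preproNK (3.47 and 4.20). The block is a shift common to all groups, so it covers date and that split only where the groups share them. The replicate block, the filter, the normalization, array weights, a trend in the spread, fits to 2 groups, 1 probe set per gene and each array left out were the alternatives tried.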

Additional observations from a re-analysis of the deposited data

How the results depend on the processing

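With 2 arrays a group, the calls depended on the setting, and the causes were not tested. Over 36 differences of member probe sets, settings other than leaving out 1 array alone gave 296 values. These settings include the block without WT preproNK replicate 2, which also lacks an array and gave part of the changes counted next. Of the 296, 270 kept the direction and the side of the threshold, 17 kept the direction and passed it, and 9 changed sign. Leaving out 1 array gave 208 values, of which 172, 10 and 26 did so. The 17 and 10 belong to Ets1, except for 3 of Cbfb without WT preproNK replicate 1.

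The number of called probe sets, preproNK against ALP, went with the replicate block, the pairing by date, from 16 to 43 in WT, from 379 to 797 in KO and from 740 to 1627 over both. The block changed no call of a member beyond the 2 Ets1 probe sets already given. With the block and without WT preproNK replicate 2 the counts were 760 in WT, 2412 in KO, 3341 over both and 29 for KO against WT in preproNK. With 1 probe set per gene, which tests fewer features, 203 were called in KO and 391 over both. Without the filter there were 8 calls in WT and 1 for KO against WT in preproNK. In WT, repeated quantile normalization gave 78, a trend in the spread 10, array weights 4 and a fit to the 2 WT groups 0. In KO, array weights gave 1927 and a fit to the 2 KO groups 2200. With 2 arrays and a mean for each group, both arrays lie equally far from that mean and must receive equal weights. These ran from 0.33 in WT preproNK to 2.54 in KO preproNK, and they cannot single out an array. With 1 array left out, the lone array of a group being assumed to vary like the others, counts ran from 0 to 1346 in WT, from 0 to 0 in KO, from 38 to 2058 over both and from 0 to 5058 for KO against WT in preproNK.

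The differences below changed sign under a setting, and none of the values of opposite sign passed the threshold. With the block and without WT preproNK replicate 2, the difference between populations was -0.13 on Runx1 1452531_PM_at, 0.038 on Runx1 1422865_PM_at and 0.66 on Runx3 1440275_PM_at, and the interaction was -0.37 for Ets1, -0.0063 for Runx3 and -0.22 for Cbfb. Under quantile normalization Runx1 1452531_PM_at gave -0.011 for KO against WT in ALP and 0.061 for preproNK against ALP in WT, and the Runx3 interaction was -0.046. With 1 array left out, KO against WT ranged in ALP from -0.17 to 1.34 for Ets1 and from -0.27 to 0.65 for Runx1, and in preproNK from -0.15 to 2.75 for Ets1. The difference between populations ranged in WT from -0.63 to 0.28 for Runx1 1452531_PM_at and from -0.20 to 0.62 for Runx3 1421467_PM_at, and in KO from -0.11 to 0.68 for Runx1. Over both genotypes it ranged from -0.18 to 0.28 on 1452531_PM_at, -0.29 to 0.26 on 1452530_PM_a_at, -0.080 to 0.11 on 1427650_PM_a_at, -0.79 to 0.44 on 1422865_PM_at and -1.17 to 0.89 on Runx3 1440275_PM_at. The interaction ranged from -0.74 to 2.16 for Ets1, from -0.0035 to 0.91 for Runx1 and from -0.30 to 1.20 for Cbfb.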

Other observations

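The genes whose values ran closest to each member over the 8 arrays were found by the root mean square difference of log2 values, each gene centred on its own mean, among 11583 genes. These are descriptions over 8 arrays that share dates and groups, with no test. Closest to Ets1 were Tmsb4x, which encodes the actin-binding peptide thymosin beta, at 0.20, Lpar6, a receptor for lysophosphatidic acid, at 0.20, and Itgb2, the common beta chain of the leukocyte integrins, at 0.26, against a median of 1.47 over all genes. Closest to Runx1 were Ttll12 at 0.09, Fam126a at 0.12 and Ckap5, a microtubule-binding protein, at 0.13, against a median of 0.61. Closest to Runx3 were Srpk1, a kinase of splicing factors, at 0.10, Tomm34 at 0.12 and Cradd, an adaptor with a death domain, at 0.13, against 0.63. Closest to Cbfb were Dgcr8, a partner of Drosha in microRNA processing, at 0.13, and Tomm20, a receptor of protein import into mitochondria, and Rpa1, a protein that coats single-stranded DNA, both at 0.16, against 0.78.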
